A study of Mus musculus with 6 samples.

Results

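The collagen genes of aged mouse calf muscle are described here. Their members were all listed genes whose symbol has the form Col, a type number, the letter a and a chain number. This pattern matched 44 of 23238 symbols, which were divided into 11 chains of fibrillar collagens, 6 chains of basement membrane (type IV) collagen and 27 chains of other collagens. The samples were gastrocnemius muscles of wild-type C57/BL6J mice aged 26 months. The mice received by mouth, for 30 days, farnesol at 350 mg/kg (n = 3 libraries) or the vehicle, 5% DMSO in saline (n = 3 libraries). Farnesol is a sesquiterpene alcohol. Whole muscle was used, so RNA of fibres, connective tissue, vessels and nerves was measured together, and fewer cells of a type cannot be told apart from less RNA per cell.

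Collagens are proteins of 3 chains wound into a triple helix. Fibrillar collagens, above all types I and III, form the tension-bearing fibrils of the connective tissue that surrounds fibres, fascicles and whole muscles. Type IV collagen is the network-forming collagen of the basement membrane around each muscle fibre and capillary. Among the other collagens, type VI forms beaded filaments next to the basement membrane, the FACIT chains decorate fibril surfaces, types XV and XVIII (multiplexins) sit in the basement membrane zone, and a few types are transmembrane proteins. In skeletal muscle, fibroblasts and their progenitors make most of the fibrillar and type VI collagen, and endothelial cells and muscle fibres contribute type IV.

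No collagen gene passed the test between farnesol and vehicle. Of the 44 members, 23 had enough counts to be tested, and 12 of them were higher and 11 lower after farnesol, with a median log2 fold change of 0.02 (all 11674 tested genes: 49.1% higher, 50.9% lower, median −0.01). In edgeR's quasi-likelihood test with Benjamini-Hochberg adjustment over all genes, 0 of 23 passed an adjusted p of 0.05 (all tested genes: 0%), and 0 of 23 had an unadjusted p under 0.05 (all tested genes: 3.01%). DESeq2 and limma-voom also called 0 collagens. All 23 of the 95% intervals of the fold included 1. The groups did not overlap in 1 of 23 collagens, Col5a2, against 8.82% of all tested genes.

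The pair of genes for the common type IV chains shows how closely some members are arranged in the genome. Col4a1 and Col4a2 lie head to head on chromosome 8, and their 300-base promoter windows (RefSeq, GRCm38.p6, from 250 bases before the start to 50 bases after) share 78 bases. The windows are printed because the genes share this start region. A link between this region and the levels of the 2 genes was not tested. Col4a1 is at chr8:11312777-11313076 on the minus strand and Col4a2 at chr8:11312555-11312854 on the plus strand. Each is written 5′ to 3′ on its own strand, with the shared bases in capitals.
Col4a1: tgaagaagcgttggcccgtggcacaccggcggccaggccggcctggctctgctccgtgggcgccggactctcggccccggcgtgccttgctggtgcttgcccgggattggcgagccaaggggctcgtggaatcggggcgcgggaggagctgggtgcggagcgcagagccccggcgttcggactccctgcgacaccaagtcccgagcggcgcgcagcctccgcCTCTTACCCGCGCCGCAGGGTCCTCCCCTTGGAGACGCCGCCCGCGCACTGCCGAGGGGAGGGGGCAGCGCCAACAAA
Col4a2: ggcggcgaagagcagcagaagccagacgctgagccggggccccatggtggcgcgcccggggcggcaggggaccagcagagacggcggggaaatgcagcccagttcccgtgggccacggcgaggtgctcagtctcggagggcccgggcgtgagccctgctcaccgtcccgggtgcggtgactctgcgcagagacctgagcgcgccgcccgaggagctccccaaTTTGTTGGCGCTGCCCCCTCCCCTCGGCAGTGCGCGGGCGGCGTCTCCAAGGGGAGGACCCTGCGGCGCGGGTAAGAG

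The promoters of Col1a2 and Col3a1, the fibrillar chains with the highest counts, are printed for comparison. Both genes were highest in the same pair of libraries (below, vehicle replicate 2 and farnesol replicate 3). Col1a1 was highest in this pair too, but no promoter window was found for it. A link between promoter sequence and these levels was not tested. Col1a2 is at chr6:4505368-4505667 and Col3a1 at chr1:45311288-45311587, both on the plus strand, and capitals mark each match to a CCAAT box (CCAAT), a GC box (GGGCGG) or a TATA box (TATAAA) on either strand.
Col1a2: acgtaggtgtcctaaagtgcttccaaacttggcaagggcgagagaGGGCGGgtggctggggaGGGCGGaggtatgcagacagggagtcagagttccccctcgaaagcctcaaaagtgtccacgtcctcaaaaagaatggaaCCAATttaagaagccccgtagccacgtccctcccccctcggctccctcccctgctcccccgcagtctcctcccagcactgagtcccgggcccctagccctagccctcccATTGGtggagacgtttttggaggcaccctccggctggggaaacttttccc
Col3a1: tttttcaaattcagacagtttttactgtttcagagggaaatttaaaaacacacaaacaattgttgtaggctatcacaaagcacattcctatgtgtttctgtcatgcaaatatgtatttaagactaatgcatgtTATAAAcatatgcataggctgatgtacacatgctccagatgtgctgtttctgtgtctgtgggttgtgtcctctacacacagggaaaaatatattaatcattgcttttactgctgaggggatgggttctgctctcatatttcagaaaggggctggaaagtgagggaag

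The printed windows differed in base composition, from 37.7% G and C in Col3a1 to 61.0% in Col1a2, 73.7% in Col4a2 and 74.0% in Col4a1. Col1a2 held 2 CCAAT matches and 2 GC boxes, and Col3a1 held 1 TATA match and none of the others. RefSeq windows were found for 35 of 44 collagens (38 windows). GC box letters stood in 60.5% of the collagen windows and in 35.7% of all 32851 promoter windows of the same length, CCAAT letters in 34.2% and 37.4%, and TATAAA in 13.2% and 13.6%. These matches describe letters in the window and not binding.

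The libraries held 9895700 to 12707751 counts, and collagens took 0.0427% to 0.0616% of them (5118 to 6302 counts). Skeletal muscle markers took 18.3% to 22.5% of each library, and all 9 were detected in all 6 libraries. Levels are given as CPM, the usual depth-scaled count, after adjusting library sizes by trimmed-mean (TMM) factors. A count of 0 allows up to 3 counts, 0.251 to 0.309 CPM depending on the library, and this limit covers counting error only. Farnesol replicate 1 stood apart. Its log2 CPM, taken as deviations from the mean of each gene, was lower for longer transcripts (Spearman's rho −0.24 over 11244 genes, against 0.02 to 0.10 in the other 5 libraries), and its share of the ribosomal RNA gene Rn45s was 4.97% against 9.92% to 15.4%. The tested collagens have transcripts of 4.10 to 11.5 kb. Without farnesol replicate 1, 0 collagens passed, and the median log2 fold changes were 0.13 (fibrillar), 0.02 (basement membrane) and 0.05 (other). With all 6 libraries but Rn45s taken out of the fit, 0 collagens passed, and the medians were 0.06, −0.03 and −0.03. That fit only removes the gene itself. What transcript length or the Rn45s share of a library did to the values was not tested.

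Collagen counts were concentrated in a few chains. Col1a2, Col4a1, Col3a1, Col1a1, Col4a2, Col6a3 and Col6a1 held 79.2% of them, and the 21 members below the filter together held 1.26%. The libraries were made to read a tag near the 3′ end of transcripts, so counts need not grow with transcript length. Levels of different genes are compared here per kb of the longest transcript, and then in CPM without that division. On this scale of mean CPM per kb over 6 libraries, Col1a2 led at 34.3, and its range of 23.0 to 48.2 lay above that of every other collagen. Col4a1 followed at 9.88 (7.62 to 11.8), then Col3a1 at 8.07 (5.65 to 12.5), Col1a1 at 6.72 (5.09 to 10.7) and Col4a2 at 6.08 (5.60 to 6.90). Each of these 4 genes overlapped the next in range, whereas Col4a1 and Col4a2 did not overlap. The type VI chains Col6a1, Col6a3 and Col6a2 came next at 3.74, 3.11 and 2.93, and Col15a1 stood at 2.75. The order of the type VI chains depends on the division by length: in mean CPM without it, Col6a3 was at 31.4, Col6a1 at 15.3 and Col6a2 at 14.4. In mean CPM, Col1a2 was at 184, Col4a1 at 65.4, Col3a1 at 44.9, Col1a1 at 39.8 and Col4a2 at 39.2, the same order as per kb. The gap between Col4a2 and Col6a3 also depends on the division. In CPM their libraries overlapped, at 36.1 to 44.5 for Col4a2 and 27.8 to 37.4 for Col6a3.

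**Figure D1:**
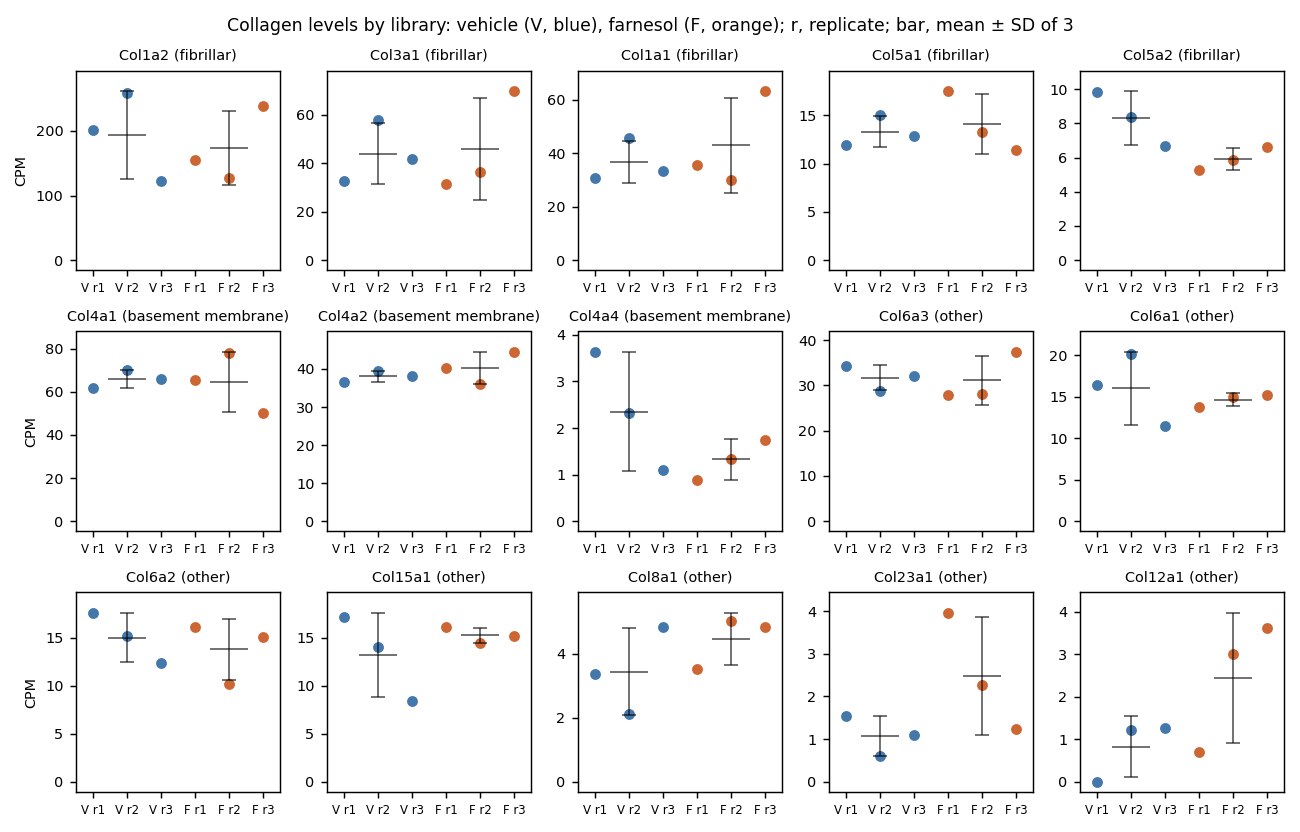
Levels (CPM, linear axes) of 15 collagen genes in each library, with vehicle libraries in blue (V, replicates r1 to r3) and farnesol libraries in orange (F, replicates r1 to r3); bars are the mean ± SD of 3 libraries. Col1a2, Col3a1 and Col1a1 are high in vehicle replicate 2 and farnesol replicate 3, and Col5a2 is the 1 gene whose groups do not overlap.

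Type I collagen, the main fibrillar collagen of muscle connective tissue, is built from the chains of Col1a1 and Col1a2. Col1a2 (chromosome 6, 4505618 to 4541543, mm10) measured 201, 258 and 123 CPM in the vehicle libraries and 156, 127 and 238 CPM in the farnesol libraries, in the order of replicates 1 to 3. Its groups overlapped over nearly their whole range, the means being 194 ± 67.8 CPM for vehicle and 173 ± 57.8 CPM for farnesol (± SD over 3 libraries, here and below). The fold was 0.894 (95% interval 0.556 to 1.44, log2 fold change −0.16, SE 0.30).

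Col1a1 (chromosome 11, 94936224 to 94953042) measured 30.8, 45.6 and 33.4 CPM in vehicle and 35.6, 30.2 and 63.4 CPM in farnesol. Farnesol replicate 3 was the highest library and farnesol replicate 2 the lowest. The group means were 36.6 ± 7.87 and 43.1 ± 17.8 CPM (fold 1.17, 95% interval 0.822 to 1.68, log2 fold change 0.23, SE 0.24). Without farnesol replicate 3 its log2 fold change was −0.16.

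Col3a1 encodes the single chain of type III collagen, the fine-fibril collagen that accompanies type I. It measured 32.6, 57.7 and 41.6 CPM in vehicle and 31.4, 36.4 and 69.8 CPM in farnesol (chromosome 1, 45311538 to 45349706). Like Col1a1, it was highest in farnesol replicate 3 and next highest in vehicle replicate 2. Its fold was 1.04 (0.667 to 1.63, log2 fold change 0.06, SE 0.29), and the log2 value was −0.38 without farnesol replicate 3 and 0.30 without vehicle replicate 2.

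The chains of type I collagen were unequal in counts. In the assembled protein the chain of Col1a1 outnumbers that of Col1a2. The count ratio of Col1a2 to Col1a1 went the other way, at 6.52, 5.66 and 3.68 in the vehicle libraries and 4.37, 4.19 and 3.75 in the farnesol libraries (means 5.29 ± 1.46 and 4.11 ± 0.316, n = 3 and 3). The ratio of Col3a1 to Col1a1 was steadier, at 0.881 to 1.27. Both genes of type I are of like transcript length, 5.93 kb for Col1a1 and 5.35 kb for Col1a2. What set the excess of Col1a2 tags was not tested.

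Type V chains join type I fibrils and limit their diameter. Col5a1 measured 12.0, 15.1 and 12.9 CPM in vehicle and 17.5, 13.3 and 11.4 CPM in farnesol, with the farnesol libraries reaching both above and below the vehicle range (fold 1.06, 0.737 to 1.53). Col5a2, the partner chain (chromosome 1, 45374331 to 45503282), measured 9.86, 8.39 and 6.69 CPM in vehicle and 5.28, 5.85 and 6.60 CPM in farnesol. Every farnesol value lay below every vehicle value, although vehicle replicate 3 and farnesol replicate 3 were 6.69 and 6.60 CPM, or 79 and 64 counts. The group means of 8.31 ± 1.59 and 5.91 ± 0.659 CPM gave a fold of 0.711 (0.448 to 1.13, log2 fold change −0.49, SE 0.32, edgeR adjusted p = 0.999993), which did not pass. The log2 fold change of Col5a2 stayed between −0.63 and −0.35 with each library left out in turn.

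The ratio of Col5a1 to Col5a2 counts was 1.21, 1.80 and 1.92 in vehicle and 3.32, 2.27 and 1.73 in farnesol libraries, so the groups overlapped. Col5a3, the third type V chain, was level between groups at 10.7 ± 2.41 and 10.9 ± 1.46 CPM (fold 1.02, 0.683 to 1.51). Col11a1, a fibril-nucleating chain best known from cartilage, reached a mean of 11.3 counts and had a fold interval of 0.446 to 6.43. The other 4 fibrillar chains, Col2a1, Col11a2, Col24a1 and Col27a1, were below the filter with 6 to 29 counts over all libraries. Col2a1 is the main cartilage collagen and had 9 counts. The 7 tested fibrillar genes split into 5 higher and 2 lower, with a median log2 fold change of 0.06.

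The type IV network of the basement membrane is built mostly from the chains of Col4a1 and Col4a2. Col4a1 (chromosome 8, 11198423 to 11312889) measured 61.7, 70.3 and 65.9 CPM in vehicle and 65.6, 78.2 and 50.4 CPM in farnesol. The vehicle libraries lay within the range of the farnesol libraries. Its fold was 0.982 with a 95% interval of 0.764 to 1.26 (log2 fold change −0.03, SE 0.17), the narrowest of the 23 on the log2 scale.

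Col4a2 (chromosome 8, 11312805 to 11449287) measured 36.6, 39.5 and 38.2 CPM in vehicle and 40.2, 36.1 and 44.5 CPM in farnesol. The means of 38.1 ± 1.47 and 40.3 ± 4.21 CPM gave a fold of 1.06 (0.820 to 1.36). The count ratio of the pair was not fixed: Col4a1 over Col4a2 was 1.69, 1.78 and 1.73 in vehicle libraries and 1.63, 2.17 and 1.13 in farnesol libraries. The farnesol libraries spread to either side of the narrow vehicle range, with SD 0.517 against 0.0472 (n = 3 each). In CPM, farnesol replicate 2 was highest for Col4a1 and lowest for Col4a2, and farnesol replicate 3 the reverse. Col4a1 differed more between these libraries (78.2 and 50.4 CPM, 936 and 489 counts) than Col4a2 (36.1 and 44.5 CPM, 432 counts in each). A difference in spread was not tested.

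The chains of the more restricted type IV networks were sparse. Col4a4, the only one tested, measured 3.64, 2.32 and 1.10 CPM in vehicle and 0.880, 1.34 and 1.75 CPM in farnesol. The groups overlapped, the fold was 0.564 (0.217 to 1.47), and vehicle replicate 1 held 38 of the gene's 117 counts. Without that library the log2 fold change went from −0.83 to −0.37. Col4a3, Col4a5 and Col4a6 had 31, 25 and 29 counts over all libraries.

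**Figure D2:**
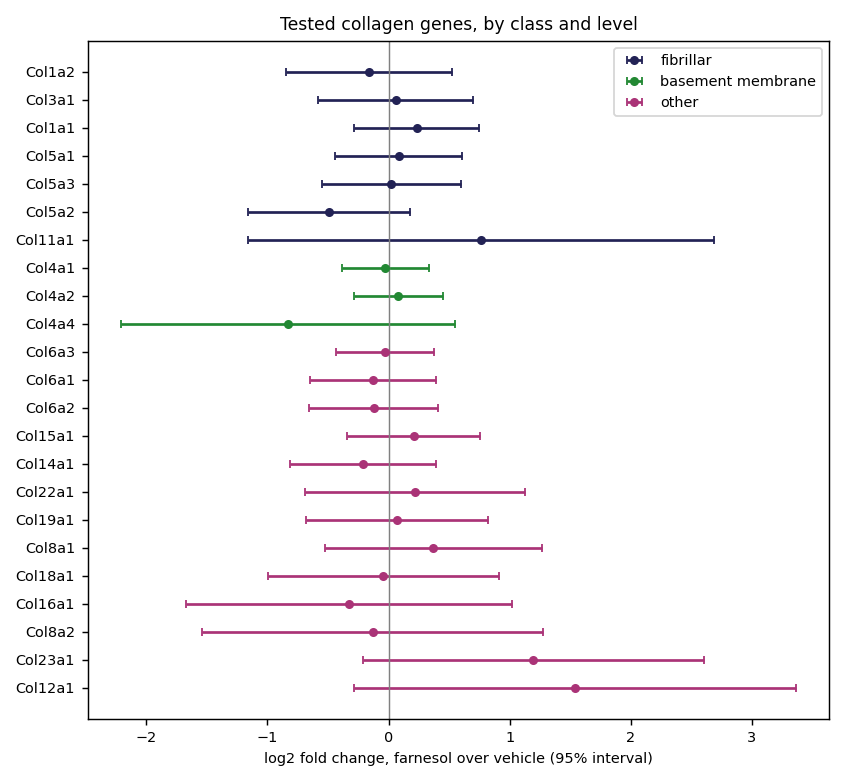
Log2 fold change of farnesol over vehicle (x axis) for the 23 tested collagen genes (y axis), with 95% intervals from the edgeR fit, coloured by class and ordered by level within a class. All 23 intervals cross 0, and they are narrowest for abundant genes such as Col4a1 and widest for sparse genes such as Col11a1 and Col12a1.

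Type VI collagen is assembled from the chains of Col6a1, Col6a2 and Col6a3 and links the basement membrane to the interstitium. Mutation of any of the 3 genes causes muscle disease. Col6a3 (chromosome 1, 90766860 to 90844001) measured 34.2, 28.8 and 32.1 CPM in vehicle and 27.8, 28.2 and 37.4 CPM in farnesol (fold 0.981, 0.742 to 1.30). Col6a1 measured 16.5, 20.2 and 11.4 CPM in vehicle and 13.7, 15.0 and 15.3 CPM in farnesol (fold 0.915, 0.639 to 1.31). Col6a2 measured 17.5, 15.2 and 12.4 CPM in vehicle and 16.1, 10.2 and 15.0 CPM in farnesol (fold 0.918, 0.636 to 1.33).

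In all 3 type VI genes the groups overlapped and the log2 fold change was small, between −0.13 and −0.03. Each of the 3 became positive in at least 1 fit with a library left out, for example Col6a1 at 0.07 without vehicle replicate 2. The ratio of Col6a2 to Col6a1 counts ran from 0.682 to 1.17 and that of Col6a3 to Col6a1 from 1.43 to 2.81. Col6a4, Col6a5 and Col6a6 were below the filter with 1, 26 and 55 counts, and vehicle replicate 1 held 24 of the 26 of Col6a5.

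Among the multiplexins of the basement membrane zone, Col15a1 (chromosome 4, 47207655 to 47313167) measured 17.1, 14.0 and 8.46 CPM in vehicle and 16.1, 14.5 and 15.1 CPM in farnesol. Vehicle replicate 3 was low, and without it the log2 fold change went from 0.21 to −0.03. Col18a1, the source of endostatin, stood at 3.19 ± 0.593 and 3.09 ± 0.573 CPM. The FACIT chain Col14a1 stood at 13.5 ± 2.52 and 11.7 ± 4.28 CPM (fold 0.864, 0.570 to 1.31). Col22a1, a chain of the muscle-tendon junction, stood at 5.61 ± 2.22 and 6.48 ± 4.14 CPM, with 11.1 CPM in farnesol replicate 1 against 3.05 to 6.97 CPM elsewhere. Col19a1 was at 5.68 ± 1.94 and 5.94 ± 0.354 CPM.

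The largest positive log2 fold changes belonged to sparse genes. Col12a1, a FACIT chain of tendon and fascia, measured 0, 1.21 and 1.27 CPM in vehicle and 0.704, 3.01 and 3.61 CPM in farnesol, or 0, 12 and 15 counts against 8, 36 and 35. Farnesol replicate 1 lay inside the vehicle range, the fold was 2.90 (0.820 to 10.3, edgeR adjusted p = 0.999993), and the value did not pass. In edgeR its unadjusted p was 0.0424 with a replicate block (adjusted p = 0.999) and 0.0437 without farnesol replicate 1 (adjusted p = 0.99964). Col23a1, a transmembrane collagen, measured 1.53, 0.606 and 1.10 CPM in vehicle and 3.96, 2.26 and 1.24 CPM in farnesol (fold 2.29, 0.862 to 6.09, edgeR adjusted p = 0.999993). Its highest value came from farnesol replicate 1. Against a log2 fold change of 1.20 with all libraries, the value was 0.69 without that library and 1.52 without vehicle replicate 1. Without farnesol replicate 3 it was 1.51 (edgeR unadjusted p = 0.0426, adjusted p = 0.99959). Col8a1, a short chain collagen of vessel walls, measured 3.35, 2.12 and 4.82 CPM in vehicle and 3.52, 5.02 and 4.84 CPM in farnesol (fold 1.29, 0.694 to 2.41). The FACIT chain Col16a1 and the short chain Col8a2, had folds of 0.798 (0.314 to 2.03) and 0.914 (0.344 to 2.43).

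Below the filter, 2 members, Col9a2 and Col28a1, had 0 counts in every library. In 4 others (Col9a1, Col9a3, Col26a1 and Col6a4) all vehicle libraries were at 0 and the farnesol libraries summed to 10, 9, 2 and 1 counts. The reverse held for Col25a1, a transmembrane collagen needed for motor nerve contact during development, with 32, 0 and 14 counts in vehicle and 0, 0 and 0 in farnesol. Col25a1 was chosen here after its values were seen. A vehicle library was also at 0. In edgeR without the count filter the unadjusted p of Col25a1 was 0.000204 and the adjusted p 0.159, which did not pass. Without vehicle replicate 2, the library at 0, these edgeR values were 0.000315 and 0.410. In DESeq2, also run without that filter, 0 collagens were counted with an unadjusted p under 0.05. Col10a1, the collagen of hypertrophic cartilage, had 10 counts in all, and the skin anchoring and hemidesmosome chains Col7a1 and Col17a1 had 31 and 22. Col13a1, a transmembrane collagen of the neuromuscular junction, had 38 counts and Col20a1 had 34.

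The 3 classes took like shares of collagen counts in each group. Fibrillar chains held 57.0 ± 4.95% of collagen counts in vehicle and 55.7 ± 7.40% in farnesol, basement membrane chains 20.5 ± 3.49% and 21.3 ± 5.03%, and the others 22.5 ± 2.46% and 23.1 ± 2.49% (n = 3 each). The median log2 fold changes of the classes were 0.06, −0.03 and −0.03 (7, 3 and 13 tested members), beside −0.01 over all tested genes. Summed over a class, basement membrane collagens stood at 107 ± 6.29 CPM in vehicle and 108 ± 8.70 CPM in farnesol, other collagens at 119 ± 16.8 and 119 ± 8.15 CPM, and fibrillar collagens at 308 ± 85.0 and 296 ± 93.7 CPM. The ratios of the group means were 1.01, 0.999 and 0.958.

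**Figure D3:**
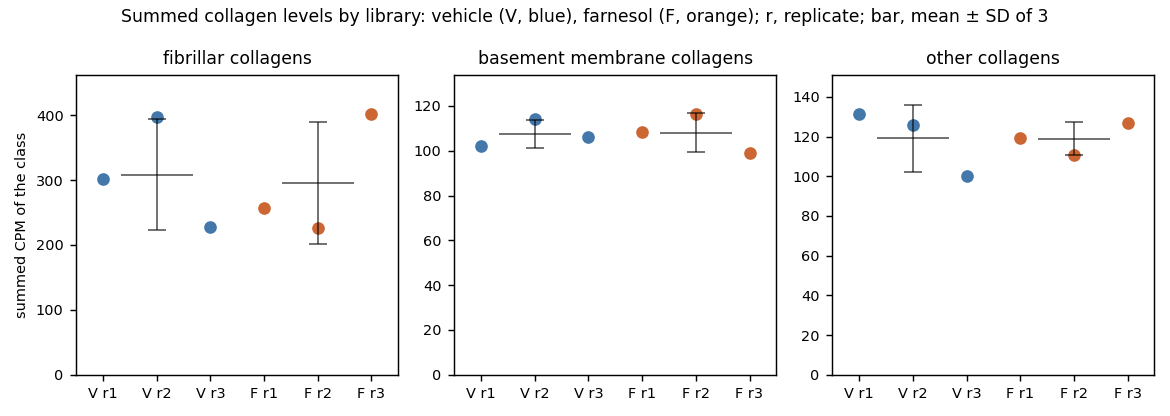
Summed CPM of each collagen class (linear axes from 0) in the 3 vehicle (V, blue) and 3 farnesol (F, orange) libraries, r being the replicate and bars the mean ± SD of 3 libraries. Fibrillar sums run from 227 to 402 CPM and are highest in 1 library of each group, and basement membrane sums stay between 99.1 and 117 CPM.

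The classes differed more in their spread between libraries than between groups. The fibrillar sum was 302, 397 and 227 CPM in vehicle and 258, 227 and 402 CPM in farnesol libraries, so that the groups covered nearly the same range. The basement membrane sum was 102, 114 and 106 CPM in vehicle and 108, 117 and 99.1 CPM in farnesol. Over the 6 libraries the coefficient of variation of the sum was 26.6% for fibrillar, 9.92% for other and 6.31% for basement membrane collagens. Counting alone gives 1.76%, 2.79% and 2.92%. The basement membrane sum was steadier than its main genes, at 14.2% for Col4a1 and 7.82% for Col4a2. The highest library exceeded the lowest 1.77-fold for the fibrillar sum and 1.18-fold for the basement membrane sum. The class difference in spread is given as a description, without a test.

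Fibrillar sums followed mainly Col1a2, Col3a1 and Col1a1. Without Col1a2 the fibrillar sums were 100.4, 139 and 104 CPM in vehicle and 102, 100.1 and 164 CPM in farnesol, with vehicle replicate 2 and farnesol replicate 3 again highest. The type V chains did not share this order: Col5a1 was highest in farnesol replicate 1 and lowest in farnesol replicate 3, and Col5a2 and Col5a3 were highest in vehicle replicate 1. In the same 2 libraries the basement membrane sums were 114 CPM (vehicle replicate 2) and 99.1 CPM (farnesol replicate 3), the second highest and the lowest.

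Gene by gene, the biological coefficient of variation of the fit was smallest in Col4a2 (16.1%), Col4a1 (16.2%) and Col6a3 (17.4%) and stood at 26.1% in Col1a2, 25.4% in Col3a1 and 21.5% in Col1a1. It was largest, at 61.5%, in Col12a1. The median was 25.9% over the 23 collagens and 23.9% over all tested genes. By class it was 25.4% in fibrillar, 16.2% in basement membrane and 34.3% in other collagens, another order than that of the class sums. The fit draws the biological coefficient of each gene toward that of genes with like counts, so it is not the raw spread between libraries. How far count level set its order by gene and class was not tested. In Col1a2 the coefficient of variation of CPM over the 6 libraries was 31.3%, where counting alone gives 2.26%. In Col4a2 the coefficient of variation of CPM was 7.82%, against 16.1% from the fit.

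**Figure D4:**
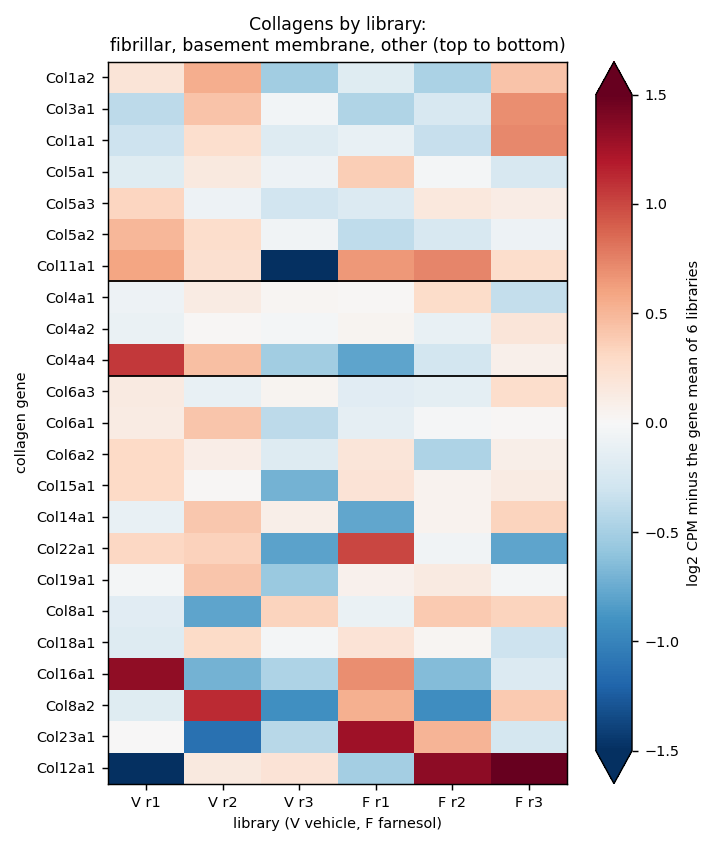
Log2 CPM of each tested collagen minus its mean over the 6 libraries (colour scale from −1.5 to 1.5, with values beyond it in the end colours), with genes in rows by class and libraries in columns (V vehicle, F farnesol, r replicate). Col1a2, Col3a1 and Col1a1 are above their mean in vehicle replicate 2 and farnesol replicate 3, Col4a1 and Col4a2 stay pale, and the sparse Col11a1 and Col12a1 reach beyond the scale.

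Marker lists of collagen-producing cells were set beside the class sums. Of the fibro-adipogenic progenitor and fibroblast markers 8 of 11 tested were higher and 3 lower (median log2 fold change 0.19). Their summed levels were 563 to 702 CPM in vehicle and 601 to 847 CPM in farnesol libraries. Most of this sum came from Gsn, at 315 to 411 CPM in vehicle and 339 to 524 CPM in farnesol libraries. Tendon cell markers split into 4 higher and 5 lower of 9 (median −0.02; 181 to 239 CPM and 204 to 259 CPM). Both sums were highest in farnesol replicate 1, where the fibrillar sum was 258 CPM. In farnesol replicate 3, the highest library for fibrillar collagens, they were 669 and 220 CPM. Endothelial markers split into 3 higher and 6 lower of 9 (median −0.05; 119 to 165 and 118 to 149 CPM), and pericyte and smooth muscle markers into 3 and 5 of 8 (median −0.05; 263 to 326 and 218 to 303 CPM). Of the cartilage and bone markers only Sox9 and Alpl had enough counts to be tested, Matn3, Lect1 and Bglap were at 0 in all libraries, and the aggrecan gene Acan had 9 counts, all in vehicle replicate 2. The list summed to 26.1 to 41.1 and 33.3 to 39.0 CPM, mostly from Sox9 at 22.3 to 32.9 and 27.6 to 34.4 CPM.

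No marker of these 5 lists passed over all genes in edgeR. Tppp3, of tendon sheath cells, averaged 17.2 ± 4.11 and 32.8 ± 5.13 CPM with separate groups (log2 change 0.93 with SE 0.22). Dpt, a fibroblast matrix protein that binds collagen fibrils, averaged 28.5 ± 2.51 and 36.9 ± 3.24 CPM, also with separate groups (log2 change 0.37 with SE 0.19). Groups were separate in 1 of 9 tested tendon and 1 of 11 fibroblast markers. They were separate in 0 of 9 endothelial, 0 of 8 pericyte and smooth muscle, and 0 of 2 cartilage and bone markers (all tested genes: 8.82%).

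The machinery that makes collagen was likewise without a call. Of 31 listed genes for modification, folding, secretion and cross-linking, 25 were tested, 8 higher and 17 lower, with a median log2 fold change of −0.09. Lox, the lysyl oxidase that cross-links fibrils, averaged 11.9 ± 4.41 and 16.5 ± 2.61 CPM (log2 change 0.47 with SE 0.27). Plod3, a lysyl hydroxylase and glycosyltransferase of the nascent chain, averaged 14.3 ± 3.35 and 10.3 ± 2.19 CPM (log2 change −0.47 with SE 0.27). Bmp1, the proteinase that removes the procollagen C-propeptide, averaged 3.74 ± 1.25 and 2.27 ± 0.0699 CPM with separate groups (log2 change −0.72 with SE 0.48). The smallest adjusted p of the list in edgeR was 0.999993.

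Genes of collagen breakdown and its inhibitors split evenly, 7 higher and 7 lower of 14 tested, with a median of −0.00. Fap, a serine proteinase of activated fibroblasts, averaged 4.41 ± 1.69 and 2.35 ± 0.471 CPM (log2 change −0.90 with SE 0.47), and the membrane collagenase Mmp14 at 17.8 ± 4.54 and 13.7 ± 1.73 CPM (log2 change −0.38 with SE 0.25). Timp4, an inhibitor of such enzymes, averaged 20.9 ± 2.08 and 25.8 ± 6.35 CPM. Collagen receptors had 5 higher and 3 lower of 8 (median 0.02), among them the integrin beta chain Itgb1 at 118 ± 9.29 and 111 ± 12.3 CPM and Antxr2, a receptor for type IV and type VI collagen, at 13.5 ± 2.44 and 17.5 ± 1.23 CPM with separate groups (log2 change 0.37 with SE 0.24).

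Partners of collagen in the matrix had mixed directions. The fibril-associated and interstitial matrix proteins had 10 higher and 8 lower of 18 (median 0.03). Mfap5, a microfibril protein, averaged 14.3 ± 2.19 and 22.0 ± 3.19 CPM with separate groups (log2 change 0.62 with SE 0.23), and fibronectin, Fn1, at 25.4 ± 5.69 and 20.0 ± 2.12 CPM (log2 change −0.34 with SE 0.22). Basement membrane proteins other than collagen had 4 higher and 6 lower of 10 (median −0.04). Lamb1, a laminin beta chain, averaged 18.0 ± 5.06 and 25.6 ± 2.06 CPM with separate groups (log2 change 0.51 with SE 0.23).

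Of the TGF-beta ligands, receptors and fibrosis mediators, 8 were higher and 8 lower of 16 (median 0.01). Ltbp4, which holds latent TGF-beta in the matrix, averaged 28.2 ± 6.72 and 39.4 ± 3.16 CPM (log2 change 0.48 with SE 0.20), and Smad2, which carries the TGF-beta signal to the nucleus, at 12.8 ± 1.85 and 8.62 ± 1.41 CPM with separate groups (log2 change −0.57 with SE 0.27). None of the genes of these pathway lists passed an adjusted p of 0.05 in edgeR. In 4 of 91 (4.4%) the unadjusted p was under 0.05 (Mfap5, Lamb1, Ltbp4 and Smad2), a share near the 3.01% of all tested genes. Groups were separate in 1 of 25 tested genes for making collagen, 2 of 14 for breakdown and 1 of 8 receptors. They were separate in 1 of 18 matrix, 1 of 10 basement membrane and 2 of 16 TGF-beta and fibrosis genes. Over all tested genes the share was 8.82%.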

How the data were processed

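Libraries were made from total RNA with Lexogen's QuantSeq chemistry, per the labels' protocols. The deposited tables, 1 for each of 6 libraries, hold raw counts under gene symbols. The submitters' processing notes name Bowtie2, bedtools and mm10; versions, annotation, strand handling and the treatment of repeated matches were not found in the labels or tables. Each table lists 23282 features under 23238 symbols; the 35 repeated symbols, none a collagen, were summed.

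Groups came from the titles, which call the libraries biological replicates without naming animals. The p-values therefore rest on 3 libraries a group and not on a known number of animals. The spread of each gene was moderated in the fit with that of other genes. The test was edgeR 4.0.16 (R 4.3.3) quasi-likelihood with TMM scaling, robust dispersions and Benjamini-Hochberg adjustment over 11674 genes, at a threshold of 0.05. Genes needed 10 counts at the median library size (0.940 CPM) in 3 libraries; all 23 collagens that did reached this level in at least 1 library of each group (Col11a1 in 1 vehicle and 3 farnesol libraries). SE is the size of the log2 fold change divided by the root of the F statistic. The code was tested on simulated data. Alternatives were DESeq2 1.42.0, limma 3.58.1 (voom), other scalings and filters, a replicate block and leaving out each library. Deviations used log2 CPM with a prior count of 2.

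Positions and promoters are from RefSeq (GRCm38.p6, the assembly of mm10), and transcript lengths from GENCODE vM21. Col4a1 and Col4a2, Col4a3 and Col4a4, Col10a1 and Nt5dc1, and Col9a3 and Tcfl5 overlap in RefSeq, so their counts are uncertain where a partner is sparse.

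Members and lists were chosen with earlier results of these data known; no p was adjusted over a list and no list was tested. Values by library are given for the 4 most abundant tested members of each class, the 6 members with the lowest unadjusted p, and members called or with separate groups. From other lists up to 3 genes with the lowest unadjusted p were eligible.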

Additional observations from a re-analysis of the deposited data

How the results depend on the processing

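No collagen was called under any alternative scaling, filter or tool, with the replicate block, without Rn45s, or with any 1 library left out. Over all genes edgeR called 13 without the filter on low counts, and 0 to 3 with 1 library left out (3 without vehicle replicate 2). The basement membrane median was 0.20 without the filter and 0.21 in DESeq2, against −0.03, where more of the sparse type IV chains are tested. Col3a1 was −0.0038 in limma-voom. With 1 library left out, log2 fold changes that changed sign ran from −0.46 to 0.10 (Col1a2), −0.38 to 0.30 (Col3a1), −0.16 to 0.43 (Col1a1), −0.10 to 0.21 (Col5a1), −0.19 to 0.12 (Col4a1), −0.181 to 0.0465 (Col6a3), −0.324 to 0.0723 (Col6a1), −0.253 to 0.0544 (Col6a2) and −0.0335 to 0.440 (Col15a1). The cause was not tested. Of 90 such values of the 15 genes shown by library, 75 kept their direction. Some of the 15 genes were chosen for a low unadjusted p in the same data. Each fit also shared all libraries but 1 with the main fit. The count is therefore a description and cannot measure how stable the directions are. Class medians ran from −0.16 to 0.18 (fibrillar), −0.03 to 0.06 (basement membrane) and −0.12 to 0.11 (other), and log2 ratios of class sums from −0.35 to 0.16, −0.05 to 0.06 and −0.11 to 0.07. The labels do not say whether replicate numbers pair the libraries. Deviations of same-numbered libraries correlated across genes at 0.04, 0.06 and −0.02, and those of libraries with different numbers at −0.07 to 0.04. With so few libraries these values cannot decide whether the numbers pair them. With the replicate block 0 genes were called. The fibrillar log2 ratio was 0.09 without Col1a2, an alternative chosen after seeing the data, against −0.06. Depth limits the 21 chains below the filter and also the sparse tested chains, such as Col11a1 (mean of 11.3 counts, fold interval 0.446 to 6.43).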

Other observations

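Markers of cell types that make little fibrillar collagen were measured with the same fit. Adipocyte markers were higher in 7 of 7 (median log2 fold change 0.87; 219 to 400.3 CPM summed in vehicle and 321 to 491 CPM in farnesol libraries), and Cidec, a lipid droplet protein, stood at 16.3 ± 6.42 and 30.0 ± 4.14 CPM (SD, n = 3). Macrophage markers were higher in 1 and lower in 8 of 9 (median −0.30; 139 to 277 and 157 to 197 CPM). Schwann cell markers were higher in 5 and lower in 1 of 6 (median 0.18; 55.3 to 70.8 and 69.8 to 85.8 CPM). No gene of these lists passed over all genes in edgeR. Groups were separate in 4 of 7 adipocyte markers, Cidec among them, 2 of 9 macrophage and 1 of 6 Schwann cell markers (all tested genes: 8.82%). The edgeR unadjusted p was under 0.05 in 4, 2 and 1 of them (all tested genes: 3.01%).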
